A study of Mus musculus with 9 samples.

Results

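The 46 genes described here encode the collagen chains of the mouse, fibronectin (Fn1) and versican (Vcan). They were taken by symbol from the 46517 genes of the deposited tables: 44 symbols have the form of a collagen chain (Col, a type number, a and a chain number), and Fn1 and Vcan were added. RNA sequencing covered 9 cultures of wild-type C57BL/6J duodenal organoids, with 3 samples each for the control virus Ad-GFP, for Ad-hHIF2 and for Ad-hHIF1, labelled replicates 1, 3 and 4 in each group. The adenoviruses carried GFP, or a human HIF2 or HIF1 in which the prolines that mark it for degradation were replaced by alanine. The GFP was driven by the CMV promoter, and the promoter of the HIF viruses is not given in the sources used here. Cells received 50 particles each, about 72 hours before RNA was taken. What all groups shared was the culture: organoids grown from single cells, passaged at least 3 times in 50% Matrigel and kept at 5% oxygen in medium conditioned for Wnt3a, R-spondin 3 and noggin, with nicotinamide, the ROCK inhibitor Y27632 and 10 µM of the TGF-β receptor inhibitor SB431542. The comparisons ask which matrix genes differ with each HIF, and at what level the collagens of connective tissue are found in cultures grown from epithelium.

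Collagens are trimers of long chains that wind into a triple helix. Type IV chains form the sheet-like network of the basement membrane under epithelia, with type XVIII as a proteoglycan-like partner. The fibrillar types I, III and V build the cable-like fibrils of connective tissue and are made mainly by fibroblasts. Fibronectin is a secreted adhesive glycoprotein that integrins assemble into fibrils, and versican is a large chondroitin sulfate proteoglycan that binds hyaluronan. In the intestine, epithelium and the mesenchyme beneath it both contribute to the basement membrane. The HIFs are oxygen-regulated transcription factors that are degraded once their prolines are hydroxylated.

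Expected counts summed to between 21722618 and 51119041 per sample, with a median of 34006559. The TMM scaling factor was 1.31 in Ad-hHIF2 replicate 1 and 0.907 to 1.03 in the others. All 46 genes had a count in at least 1 sample. By their mean in Ad-GFP organoids, 10 genes lay above 10 CPM (counts normalized for library size), 13 between 1 and 10 CPM and 23 at or below 1 CPM. Enough counts for a test in at least 1 comparison were found for 31 genes. The other 15 never exceeded 0.875 CPM or 20 counts in any sample. They included 6 chains of the fibril-associated group, 3 of the beaded-filament group (type VI), and the type II chain Col2a1 of cartilage. Col4a6, Col6a5 and Col9a2 had at most 3 counts in every sample. Expected counts were whole in all samples for 37 of the 46 genes, which does not show that no read was shared with another gene. Col26a1 and Fn1 had a non-whole count in all 9. These lay up to 0.445% and 0.00164% of the count from the nearest whole number. That distance does not give the share of reads split with other genes.

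Per length, fibronectin was the most abundant of these transcripts in Ad-GFP organoids, at 176 ± 8.43 CPM per kilobase (SD, n = 3). The basement membrane chains followed, with Col4a1 at 31.0 ± 1.11 CPM per kilobase, Col18a1, the chain whose end fragment is endostatin, at 26.7 and Col4a2 at 14.8. Col6a1, of the beaded filaments between fibrils, and the fibrillar chains Col27a1 and Col5a1 lay at 8.08, 5.34 and 4.87 CPM per kilobase. Together, Col4a1, Col4a2 and Col18a1 made up 65.5 to 71.1% of the summed CPM of all collagen chains in every sample. Col1a1, Col1a2 and Col3a1, the chains of types I and III, made up only 0.832 to 2.86%. Both shares were lowest in Ad-hHIF2 samples, without overlap. The first was 65.5 to 66.2% there, 68.7 to 70.5% in Ad-GFP and 68.8 to 71.1% in Ad-hHIF1 samples. For types I and III the ranges were 0.832 to 1.09%, 1.22 to 1.95% and 1.19 to 2.86% in the same order. The plot of levels per length shows this order.

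**Figure D1:**
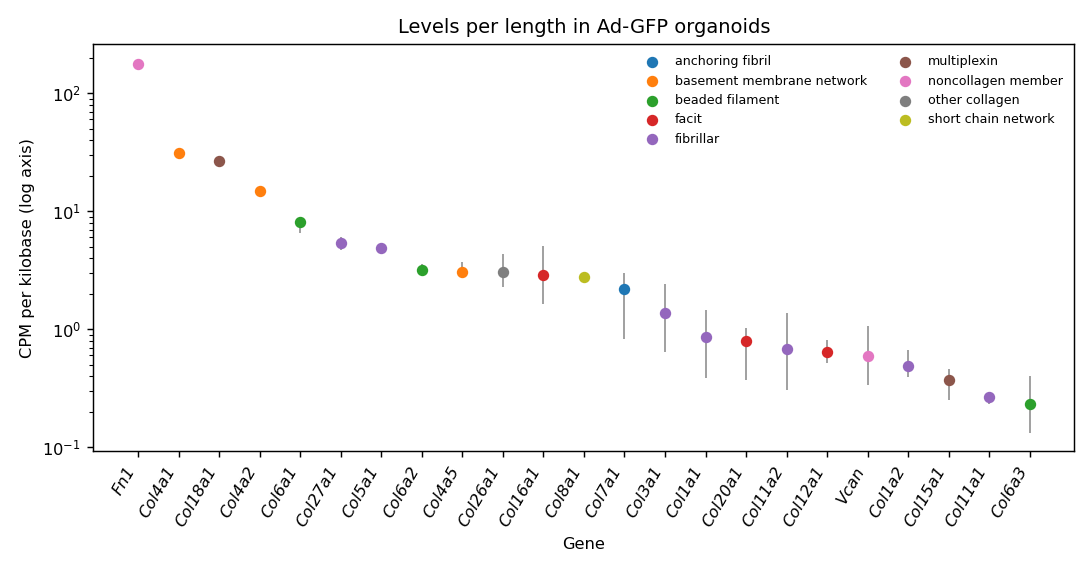
Mean CPM per kilobase of effective length (log axis) in the 3 Ad-GFP samples, for the 23 genes with a mean above 1 CPM, coloured by structural class. Grey lines run from the lowest to the highest sample; Fn1 lies at 176 CPM per kilobase and Col4a1, Col18a1 and Col4a2 come next.

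The type IV trimer of most basement membranes holds a pair of α1 chains and a single α2 chain. The ratio of Col4a1 to Col4a2 per length ran from 1.85 to 2.26 over the 9 samples. The other type IV chains were uneven: Col4a5 lay at 13.9 to 21.9 CPM, while Col4a3, Col4a4 and Col4a6 did not exceed 0.875, 1.08 and 0.0457 CPM. In type VI, Col6a1 exceeded Col6a2 per length 1.83- to 3.62-fold, and Col6a2 exceeded Col6a3, the third chain of that heterotrimer, 7.15- to 72.3-fold. Col5a1 exceeded its partner Col5a2 21.4- to 81.9-fold per length. Ratios that rest on Col6a3 or Col5a2 are imprecise: these chains were at no more than 1.23 and 1.30 CPM, and the effective length of Col6a3 ran from 2404 to 9246 bases between samples. Effective lengths of Vcan ran from 1530 to 10688 bases between samples and those of Col7a1, the anchoring fibril chain, from 1384 to 8868. Their levels per length, TPM included, therefore depend on how isoforms were assigned. Vcan is compared below by CPM, and by TPM only in the limma alternatives.

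Col4a1 (ENSMUSG00000031502) and Col4a2 (ENSMUSG00000031503) lie head to head on chromosome 8 of GRCm38, at 11198423 to 11312826 on the minus strand and 11312805 to 11449287 on the plus strand. Their first exons share 22 bases on opposite strands, so unstranded counting cannot tell those bases apart. Start-site windows of 300 bases, from 250 before to 50 after the RefSeq start (GRCm38.p6), were found for 36 of the 46 genes. The HIF-binding core is known as ACGTG or GCGTG, and either spelling was sought on both strands. Of the 36 genes, 13 had a match in at least 1 window, and 43.8% of all 32851 windows in the table hold one. Of the 5 genes with a window whose level rose in Ad-hHIF2 organoids (below), 1 had a match, Col4a2, and Fn1 and Col12a1 had no window. Among the tested genes that did not pass, 6 of 17 did. The windows of Col4a1 (chr8:11312777-11313076, minus strand) and Col4a2 (chr8:11312555-11312854, plus strand) share 78 bases. They are shown, with the match in capitals, beside those of Vcan (chr13:89742463-89742762, minus strand) and Col27a1 (chr4:63215162-63215461, plus strand). The levels of Vcan and Col27a1 rose in Ad-hHIF2 organoids (below), and their windows hold no match. The sequences run 5′ to 3′ on each gene's strand.
Col4a1: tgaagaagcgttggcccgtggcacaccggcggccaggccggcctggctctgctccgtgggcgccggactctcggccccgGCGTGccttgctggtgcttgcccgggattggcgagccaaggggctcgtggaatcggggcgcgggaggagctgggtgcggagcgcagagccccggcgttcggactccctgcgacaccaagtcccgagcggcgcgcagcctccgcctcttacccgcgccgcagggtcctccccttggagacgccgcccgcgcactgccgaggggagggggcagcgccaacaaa
Col4a2: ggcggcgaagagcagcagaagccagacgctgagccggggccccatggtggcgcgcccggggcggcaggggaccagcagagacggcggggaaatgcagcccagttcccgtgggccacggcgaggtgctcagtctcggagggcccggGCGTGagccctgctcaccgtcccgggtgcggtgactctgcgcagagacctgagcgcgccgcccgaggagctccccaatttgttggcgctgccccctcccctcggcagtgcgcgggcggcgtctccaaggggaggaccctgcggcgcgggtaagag
Vcan: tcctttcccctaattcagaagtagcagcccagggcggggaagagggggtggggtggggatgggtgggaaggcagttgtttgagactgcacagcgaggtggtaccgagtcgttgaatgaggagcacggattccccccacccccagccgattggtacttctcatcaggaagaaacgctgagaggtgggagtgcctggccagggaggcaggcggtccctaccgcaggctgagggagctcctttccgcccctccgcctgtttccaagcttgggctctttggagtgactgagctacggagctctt
Col27a1: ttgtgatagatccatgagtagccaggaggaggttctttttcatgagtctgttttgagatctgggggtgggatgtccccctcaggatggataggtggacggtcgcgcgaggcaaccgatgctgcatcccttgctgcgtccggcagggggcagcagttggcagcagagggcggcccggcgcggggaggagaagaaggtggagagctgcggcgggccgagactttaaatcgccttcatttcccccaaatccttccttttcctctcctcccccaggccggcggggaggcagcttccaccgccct
A match is only a description of letters in the window, and the lack of one says nothing about sites elsewhere.

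Before the comparisons, the cultures were read against lists of markers of the cell types they could hold, of which 1 is not reported here. Of 10 epithelial genes, the keratins Krt8, Krt18 and Krt19, the adhesion gene Cdh1 and Lgals4 exceeded 10 CPM in every sample. Other defining genes of intestinal epithelium were low against the label. Epcam ran from 1.42 to 3.80 CPM and Vil1, which encodes the microvillus protein villin, from 3.26 to 4.93 CPM. Cdx1 had 0 counts in all 9 samples, where 3 counts would be 0.0588 to 0.150 CPM. The rest of the epithelial list, Cldn7 and Cdx2, lay at 1.31 to 2.32 CPM and at 6.55 to 8.99 CPM. Of the 9 tested in Ad-hHIF2 against Ad-GFP organoids, Lgals4 was called lower (-1.14), from 52.5 to 58.5 CPM to 22.4 to 27.7 CPM, Epcam fell by 0.81 and Cdh1 rose by 0.53 on the log2 scale, and 6 did not pass. Here and for the other marker lists, the shares over all genes were 2.90% called higher and 3.83% called lower. Of 17 fibroblast genes, 9 stayed below 1 CPM in every sample, among them Lum, Thy1, Dpt and Fap, and the intermediate filament gene Vim alone exceeded 10 CPM throughout. Vim was as high as the keratins, at 1004 to 1809 CPM beside 1021 to 1357 CPM for Krt8, so that the whole fibroblast list summed to 1028 to 1830 CPM. In bulk RNA, fewer cells of a type and less RNA per cell cannot be told apart.

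Without Vim, the fibroblast genes summed to 26.5, 21.3 and 28.3 CPM in Ad-GFP organoids, 20.3, 19.6 and 20.1 CPM in Ad-hHIF2 organoids and 24.4, 25.4 and 26.1 CPM in Ad-hHIF1 organoids. All Ad-hHIF2 samples were below all others through Fbln1, a matrix glycoprotein gene, which fell by 0.72 on the log2 scale from 9.50 to 14.6 CPM in Ad-GFP to 7.08 to 7.47 CPM. Without Vim and Fbln1 the groups overlapped, with sums of 11.8 to 14.3 CPM in Ad-GFP, 12.3 to 13.0 CPM in Ad-hHIF2 and 11.4 to 13.5 CPM in Ad-hHIF1 organoids. Vim itself went the other way and rose by 0.65 on the log2 scale in Ad-hHIF2 organoids (edgeR adjusted p = 0.000454, standard error 0.0769). Markers of smooth muscle and pericytes summed to 2.42 to 5.99 CPM, with 8 of 10 below 1 CPM in every sample. Endothelial markers, 6 of 10 below 1 CPM throughout, summed to 11.2 to 14.3 CPM in Ad-GFP and 17.7 to 19.2 CPM in Ad-hHIF2 organoids, mostly from Egfl7, which rose by 1.31 on the log2 scale to 13.4 to 14.9 CPM. Without Egfl7 the order was the opposite, at 5.74 to 8.22 CPM in Ad-GFP and 4.16 to 4.69 CPM in Ad-hHIF2 organoids, and Esam was called lower (-1.82). Immune markers summed to 10.6 to 21.2 CPM, with 6 of 10 below 1 CPM, and in Ad-hHIF2 against Ad-GFP organoids 2 of the 4 tested were called in opposite directions, Ptprc lower (-3.92) and Csf1r higher (1.46, at most 4.27 CPM). The part of these marker changes in the results below was not tested.

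Against Ad-GFP, Ad-hHIF2 organoids had more RNA of fibronectin, versican and Col12a1. Calls required both a Benjamini-Hochberg p under 0.05 from the quasi-likelihood test of edgeR and a difference of 2-fold or more. Of 46 genes, 28 were tested; 3 were called higher, against 2.90% of all 14987 genes tested, and 1 was called lower, against 3.83%. A further 4 rose and 1 fell by under 2-fold, so that 9 of 28 had an adjusted p below 0.05, against 29.5% of all genes. The median log2 fold change was 0.12 over the 28 genes and -0.01 over all genes. All Ad-hHIF2 samples were above all Ad-GFP samples for 8 of the 28, against 23.4% of all genes, and below them for 6, against 22.4%. Without Ad-hHIF2 replicate 1 the calls were again 3 higher and 1 lower. With 3 samples a group, the p-values measure only the spread between these samples.

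Col12a1 (ENSMUSG00000032332, chromosome 9, 79598991 to 79718831) encodes a collagen that sits on the surface of fibrils and links them to other matrix. It was at 5.38, 3.68 and 5.44 CPM in Ad-GFP organoids and at 38.4, 36.6 and 39.5 CPM in Ad-hHIF2 organoids. The groups were far apart and the Ad-hHIF2 samples lay close together. The log2 fold change was 3.00 (edgeR adjusted p = 2.89e-06, standard error 0.143), the widest change among the 28 genes. With limma it passed at 2.26 on the log2(TPM + 0.1) scale and, under 2-fold, at 0.71 on the log2(TPM + 1) scale. Per length, Col12a1 went from 0.637 ± 0.160 to 4.54 ± 0.279 CPM per kilobase (SD, n = 3).

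Fn1 (ENSMUSG00000026193, chromosome 1, 71585520 to 71653200) was at 869, 838 and 831 CPM in Ad-GFP organoids and at 1963, 1741 and 1793 CPM in Ad-hHIF2 organoids. Every Ad-hHIF2 sample exceeded every control by a wide margin. The log2 fold change was 1.12 (edgeR adjusted p = 3.64e-05, standard error 0.0835). An antisense gene, Apol7d, shares 2.50% of its exon bases, which unstranded counting could not separate. As the most abundant transcript of the group, Fn1 set most of its sum: all 46 genes together amounted to 1395 to 1512 CPM in Ad-GFP and 2516 to 2703 CPM in Ad-hHIF2 organoids, with Fn1 at 57.5 to 59.6% and 69.2 to 72.6% of it. The collagen chains alone summed to 561 to 640 CPM and 715 to 766 CPM, without overlap.

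Vcan (ENSMUSG00000021614, chromosome 13, 89655312 to 89742509) was at 3.58, 2.88 and 2.80 CPM in Ad-GFP organoids and at 8.68, 8.53 and 8.95 CPM in Ad-hHIF2 organoids. The groups did not overlap. The log2 fold change was 1.49 (edgeR adjusted p = 0.000141, standard error 0.141). Its absolute level stayed low, with at most 435 counts in any sample. With limma it passed at 1.02 on the log2(TPM + 0.1) scale and, under 2-fold, at 0.21 on the log2(TPM + 1) scale.

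**Figure D2:**
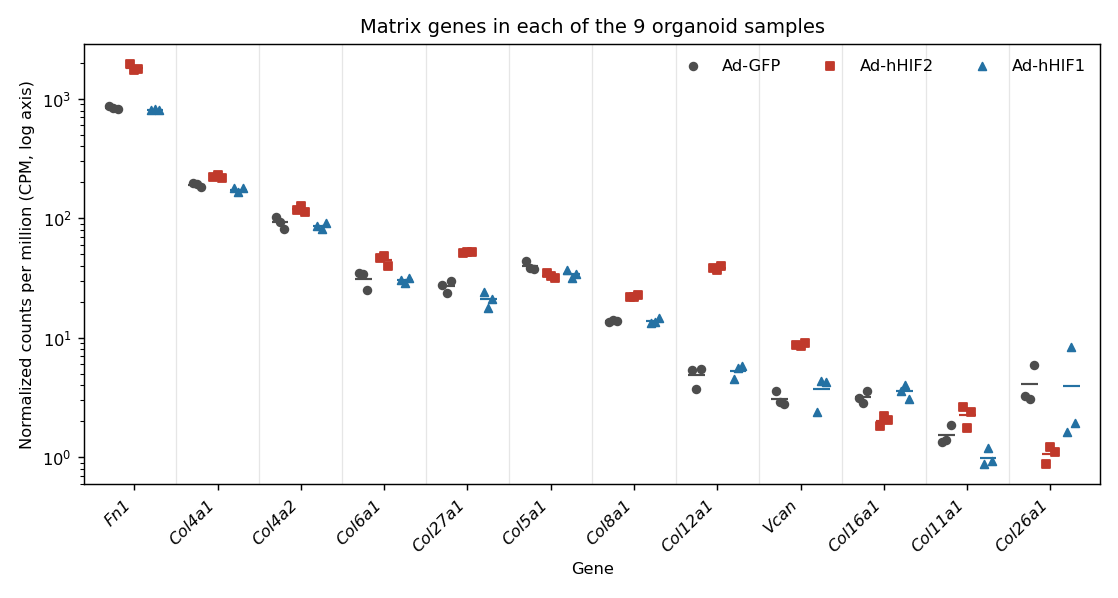
CPM (log axis) of 12 genes in each of the 9 samples, circles for Ad-GFP, squares for Ad-hHIF2 and triangles for Ad-hHIF1, with a bar at each group's mean. The Ad-hHIF2 squares of Fn1, Col4a1, Col4a2, Col6a1, Col27a1, Col8a1, Col12a1 and Vcan stand above both other groups, and Col26a1 in Ad-hHIF1 has 1 high sample at 8.35 CPM.

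Col27a1 (ENSMUSG00000045672, chromosome 4, 63214004 to 63334991), a fibrillar collagen best known from cartilage, was at 27.6, 23.7 and 29.7 CPM in Ad-GFP organoids and at 51.3, 52.5 and 52.6 CPM in Ad-hHIF2 organoids. The groups did not overlap. Its log2 fold change of 0.96 (edgeR adjusted p = 0.000143, standard error 0.0909) lay just under the 2-fold limit. Col8a1 (ENSMUSG00000068196, chromosome 16, 57624258 to 57754737), a short-chain collagen of vessel and corneal sheets, was at 13.6, 14.1 and 13.8 CPM and at 22.0, 21.8 and 22.7 CPM. Again the groups were apart, with a log2 fold change of 0.68 (edgeR adjusted p = 0.000264, standard error 0.0730).

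Among the beaded-filament and basement membrane chains, Col6a1 (ENSMUSG00000001119, chromosome 10, 76708792 to 76726168) was at 34.5, 34.1 and 24.9 CPM in Ad-GFP and 46.8, 48.3 and 39.6 CPM in Ad-hHIF2 organoids. Replicate 4 was the lowest of both groups, which did not overlap. The log2 fold change was 0.53 (edgeR adjusted p = 0.0159, standard error 0.129), and without Ad-hHIF2 replicate 3 it was 0.47 (adjusted p = 0.0617). Col4a2 was at 102, 93.6 and 82.0 CPM in Ad-GFP and 118, 126 and 113 CPM in Ad-hHIF2 organoids, a log2 fold change of 0.36 (edgeR adjusted p = 0.0197, standard error 0.0943). The adjusted p did not pass without Ad-GFP replicate 3 (0.0604) or Ad-hHIF2 replicate 3 (0.0704). Col4a1, its partner, was at 198, 193 and 182 CPM and at 221, 229 and 216 CPM, also without overlap, and did not pass the test (log2 fold change 0.22, edgeR adjusted p = 0.0533, standard error 0.0740). It did pass with DESeq2 (adjusted p = 0.00780) and with all 9 samples in 1 edgeR fit (adjusted p = 0.0483). On the log2(TPM + 1) scale with limma, Col4a2, Col6a1 and Col8a1 did not pass, with adjusted p of 0.173, 0.147 and 0.136. Nor did they pass with limma on the log2(TPM + 0.1) scale, with adjusted p of 0.167, 0.116 and 0.0869. Col18a1 overlapped between the groups, at 142, 130.3 and 121 CPM and at 139, 153 and 141 CPM (log2 fold change 0.14, edgeR adjusted p = 0.246). Col7a1 (ENSMUSG00000025650, chromosome 9, 108953586 to 108984875), whose chain anchors the basement membrane to the tissue beneath, was at 6.53, 7.86 and 7.29 CPM in Ad-GFP and 7.18, 8.98 and 7.05 CPM in Ad-hHIF2 organoids. The groups overlapped (log2 fold change 0.11, edgeR adjusted p = 0.604). Col17a1 (ENSMUSG00000025064, chromosome 19, 47646344 to 47692094), the transmembrane collagen of hemidesmosomes, was near the limit of detection, at 0.683, 0.194 and 0.450 CPM and at 0.548, 0.667 and 0.259 CPM, with at most 34 counts. It overlapped as well (log2 fold change 0.18, edgeR adjusted p = 0.845).

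Of the fibrillar chains, 9 of 11 were tested: Col27a1 rose, Col5a1 fell and 7 did not pass. Col5a1 (ENSMUSG00000026837, chromosome 2, 27886425 to 28039514), whose chain nucleates fibrils of type I, was at 44.3, 38.6 and 37.6 CPM in Ad-GFP and 35.1, 32.7 and 31.4 CPM in Ad-hHIF2 organoids. The groups did not overlap, but lay close. The log2 fold change of -0.28 (edgeR adjusted p = 0.0356, standard error 0.0832) depended on the setting. With total counts only it was -0.01, on the log2(TPM + 1) scale it turned to 0.08, and without Ad-GFP replicate 1 it was -0.20 (adjusted p = 0.127). Nor did it pass without Ad-GFP replicate 3 and without each of the Ad-hHIF2 replicates 1, 3 and 4, with adjusted p of 0.0591, 0.0660, 0.112 and 0.134. The adjusted p was 0.0585 with DESeq2 and 0.0630 in edgeR without a count filter. Transcripts on the opposite strand overlap 1.17% and 1.33% of the exon bases of Col5a1.

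The chains of types I and III did not pass the test. Col1a1, Col1a2 and Col3a1 summed to 12.5, 8.20 and 6.84 CPM in Ad-GFP organoids, 6.08, 8.35 and 7.11 CPM in Ad-hHIF2 organoids and 8.28, 15.3 and 6.70 CPM in Ad-hHIF1 organoids. The highest sums were those of Ad-hHIF1 replicate 3 and Ad-GFP replicate 1, and all groups overlapped in this sum. By single chain, Col1a2 was at 3.20, 2.05 and 1.90 CPM in Ad-GFP and 1.14, 1.73 and 1.49 CPM in Ad-hHIF2 organoids, without overlap. Col1a1 and Col3a1 overlapped. The log2 fold changes of Col1a1, Col1a2 and Col3a1 in Ad-hHIF2 organoids were -0.23, -0.72 and -0.27, with adjusted p of 0.561, 0.109 and 0.479 (edgeR). With Ad-GFP replicate 4 left out, Col5a2, the partner chain of Col5a1, was also called lower and Col27a1 joined the called genes, giving 4 higher and 2 lower.

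Col26a1 (ENSMUSG00000004415, chromosome 5, 136741759 to 136883209), a small collagen described in testis and ovary, was at 3.25, 3.05 and 5.89 CPM in Ad-GFP organoids and at 0.868, 1.22 and 1.10 CPM in Ad-hHIF2 organoids. All Ad-hHIF2 samples were below all controls. The log2 fold change was -1.91 (edgeR adjusted p = 0.00286, standard error 0.322). It did not pass on the log2(TPM + 1) and log2(TPM + 0.1) scales with limma (adjusted p = 0.186 and 0.174). In Ad-hHIF1 organoids the values were 1.63, 8.35 and 1.92 CPM, with replicate 3 above every other sample. The predicted genes Gm10800 and Gm26870 also took their largest share of the counts in that sample, while Ad-hHIF1 replicate 1 had a large share and little Col26a1. Their share was 1.77, 2.89 and 4.12% in Ad-GFP, 0.433, 1.38 and 2.02% in Ad-hHIF2 and 4.28, 16.0 and 1.15% in Ad-hHIF1 organoids. A list of cell type markers that is not reported here also differed between Ad-GFP and Ad-hHIF2 samples, without overlap of its sums. The part of that list, of the other markers and of Gm10800 and Gm26870 in the Col26a1 result was not tested. The Col26a1 change is given as a value only.

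**Figure D3:**
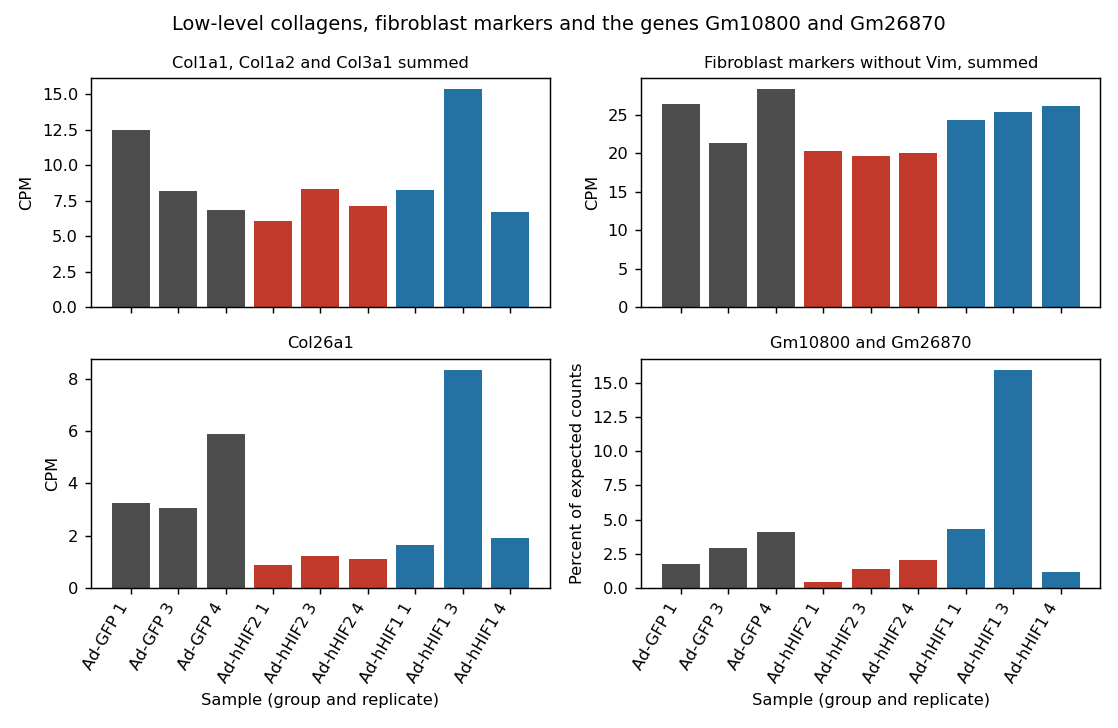
Bars give single samples by group and replicate: summed CPM of Col1a1, Col1a2 and Col3a1, summed CPM of the fibroblast markers without Vim, CPM of Col26a1, and the percentage of expected counts on Gm10800 and Gm26870. Ad-hHIF1 replicate 3 is the highest sample in 3 of the panels, at 15.3 CPM, 8.35 CPM and 16.0%.

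In Ad-hHIF1 organoids 0 of 30 tested genes passed the test against Ad-GFP, where the share over all 15233 genes was 0.00%. Before adjustment, p was below 0.05 for 8.59% of all genes and for 2 of the 30, Col27a1 (log2 fold change -0.36) and Col5a1 (-0.23), and the smallest adjusted p was 0.546 (edgeR). DESeq2 gave an adjusted p for 6 of the genes and limma on both TPM scales for 30, of which 0 passed. Over all genes, 4.04% of the 3441 with an adjusted p passed in DESeq2, and 0.00% in limma on either scale. Without a count filter edgeR passed 384 of 29714 genes and 0 of the 46, and with all 9 samples in 1 fit 7 of 15556 and 0 of 31. The median log2 fold change was -0.07 over the 30 genes and 0.00 over all genes. All Ad-hHIF1 samples were below all Ad-GFP samples for 7 genes, against 9.04% of all genes, and above them for 1, against 8.36%.

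The genes called higher with HIF2 did not pass here. Both comparisons share the same Ad-GFP samples. Fn1 was at 813, 822 and 809 CPM in Ad-hHIF1 organoids, just below the controls under TMM (0.03 with total counts only; log2 fold change -0.05, edgeR adjusted p = 0.840, standard error 0.0726). Col12a1 was at 4.51, 5.55 and 5.80 CPM, overlapping the controls (0.13, standard error 0.212). Vcan was at 2.38, 4.37 and 4.29 CPM, with replicate 1 below and the other two above the controls (0.25, standard error 0.283). The plot of changes sets both comparisons beside each other.

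**Figure D4:**
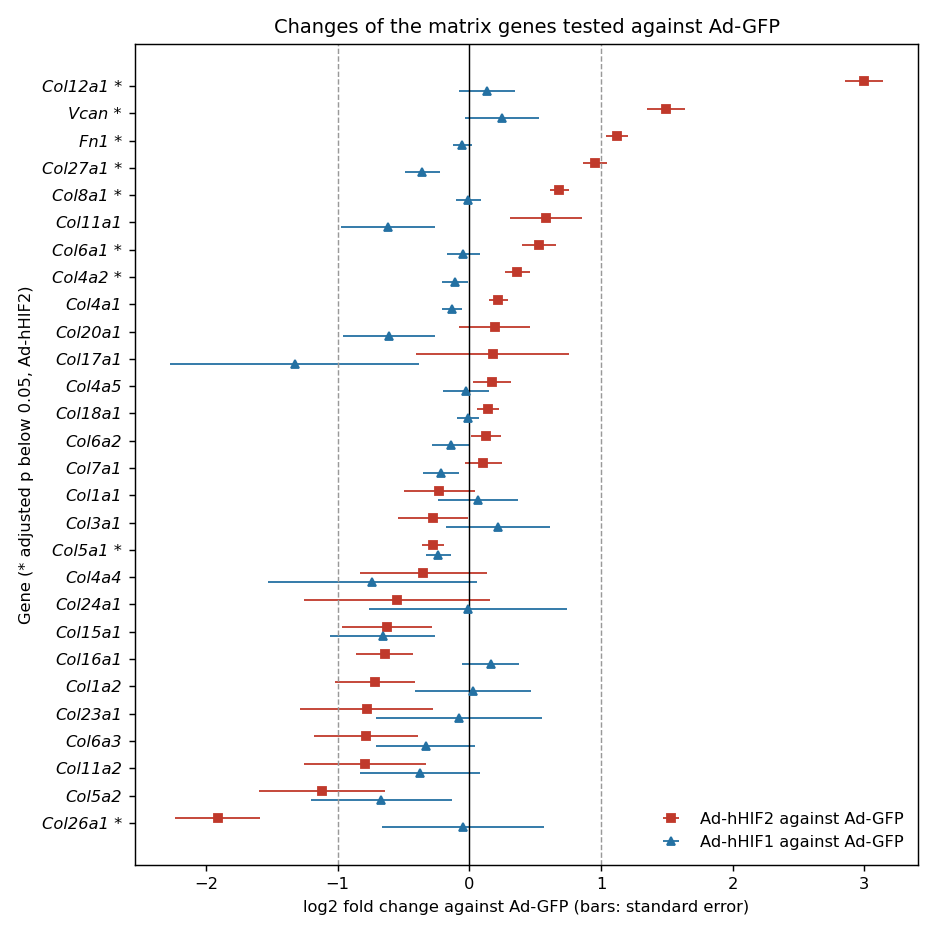
Log2 fold changes against Ad-GFP of the 28 genes tested with Ad-hHIF2 (squares), with the same genes in Ad-hHIF1 organoids (triangles). Bars are standard errors, dashed lines mark 2-fold and an asterisk marks an adjusted p below 0.05 for Ad-hHIF2; Col12a1 lies at 3.00 for Ad-hHIF2 and 0.13 for Ad-hHIF1.

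The direct contrast of both HIFs tests that difference itself. Of 31 genes tested, 5 were called higher with Ad-hHIF2 than with Ad-hHIF1, against 2.42% of all 15556 genes, and 1 was called lower, against 3.70%. A further 4 were higher and 1 lower by under 2-fold, so that 9 had an adjusted p below 0.05 and a higher level, against 13.7% of all genes, and 2 such a p and a lower level, against 12.0%. All Ad-hHIF2 samples were above all Ad-hHIF1 samples for 13 of the 31 genes, against 22.7% of all genes, and below them for 3, against 19.1%. The log2 differences were 2.85 for Col12a1 (edgeR adjusted p = 7.74e-07, standard error 0.151), 1.31 for Col27a1 (0.113, adjusted p = 2.27e-05), 1.25 for Vcan (0.221, adjusted p = 0.00236) and 1.17 for Fn1 (0.0745, adjusted p = 2.88e-06). Vcan did not pass with limma on the log2(TPM + 1) scale (0.08, adjusted p = 0.605) or the log2(TPM + 0.1) scale (0.45, adjusted p = 0.498). TPM is scaled by effective length, which for Vcan ran from 1530 to 10688 bases between samples. The part of this in the loss was not tested. On the log2(TPM + 1) scale Col12a1 and Col27a1 passed at under 2-fold (0.69 and 0.76), and on both TPM scales Fn1, Col12a1 and Col27a1 were the genes that passed. Without Ad-hHIF1 replicate 3, which had the largest share of Gm10800 and Gm26870, 5 were called higher and 0 lower. Without Ad-hHIF1 replicate 1 only 3 genes were called higher: Vcan, at 0.99, fell short of 2-fold and Col11a1 did not pass.

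Col11a1 (ENSMUSG00000027966, chromosome 3, 114030540 to 114220718), a fibrillar chain of cartilage, was at 2.63, 1.76 and 2.39 CPM in Ad-hHIF2 and at 0.872, 1.18 and 0.920 CPM in Ad-hHIF1 organoids, without overlap, and at 1.34, 1.38 and 1.85 CPM in Ad-GFP organoids, which overlapped the Ad-hHIF2 samples. The log2 difference was 1.19 (edgeR adjusted p = 0.0133, standard error 0.291). The call was lost without Ad-hHIF2 replicate 1 (adjusted p = 0.0624) or Ad-hHIF1 replicate 1 (adjusted p = 0.0523). Against Ad-GFP neither HIF passed for this gene, at 0.58 and -0.62. The chains Col8a1, Col6a1, Col4a2 and Col4a1 were higher by 0.68, 0.57, 0.47 and 0.35, with adjusted p of 9.14e-05, 0.00750, 0.00382 and 0.00505 (edgeR).

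Col16a1 (ENSMUSG00000040690, chromosome 4, 130047840 to 130099283), a fibril-associated chain, was at 1.81, 2.22 and 2.04 CPM in Ad-hHIF2 and 3.60, 3.98 and 3.07 CPM in Ad-hHIF1 organoids. The groups did not overlap, and the log2 difference was -0.81 (edgeR adjusted p = 0.0154, standard error 0.203). Without Ad-hHIF2 replicate 1 it was -0.73 (adjusted p = 0.0659), and with total counts only -0.64 (adjusted p = 0.0903). Col26a1 was the gene called lower, at -1.87 (edgeR adjusted p = 0.0409, standard error 0.590). Without Ad-hHIF1 replicate 3 the difference shrank to -0.75 (adjusted p = 0.153). The call was also lost without Ad-GFP replicate 1 or 3 (adjusted p = 0.0565 and 0.0554), without Ad-hHIF2 replicate 1, 3 or 4 (adjusted p = 0.130, 0.0897 and 0.102), in the 6 HIF samples alone (0.0639) and with the replicate block (0.0656).

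The genes that make and fold collagen were mixed in Ad-hHIF2 against Ad-GFP organoids. Here and for the lists that follow, the shares over all genes were 2.90% called higher, 3.83% called lower, 15.9% with an adjusted p below 0.05 and higher, and 13.6% with such a p and lower. Of 26 listed, 24 were tested, 1 was called higher, 2 were called lower, 7 rose and 1 fell by under 2-fold, and 13 did not pass (median log2 fold change 0.19). Tll1, the gene called higher, encodes a protease related to the procollagen protease BMP1. It was at 0.164, 0.222 and 0.0999 CPM in Ad-GFP and at 3.29, 4.28 and 4.20 CPM in Ad-hHIF2 organoids (log2 fold change 4.50). The control samples held only 2.01 to 7.96 counts, against 130 to 218 in the Ad-hHIF2 samples. Tll1 thus passed the count filter through the group where it is high. The size of its change is imprecise and is given as a value only. P4ha2, a catalytic subunit of prolyl 4-hydroxylase, which stabilizes the helix, was at 149.7, 149.6 and 119.9 CPM and at 70.7, 70.9 and 62.8 CPM, a change of -1.03 without overlap. Its paralog P4ha1 rose by 0.40, and the shared subunit P4hb fell by 0.55.

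Receptors for the matrix were tallied by the same gene tests. Of 9 collagen receptors, 5 were tested: Ddr2, a receptor for fibrillar collagen, was called lower (-1.85, from 3.52, 3.10 and 4.10 CPM to 0.891, 1.02 and 1.03 CPM), Ddr1 and Itga2 rose by 0.62 and 0.27, and 2 did not pass. Of 14 receptors and partners of fibronectin, 12 were tested: 4 rose by under 2-fold, Itga4 was called lower (-1.13), 1 fell by under 2-fold and 6 did not pass. Itga5, whose product pairs with β1 as the classical fibronectin receptor, was at 31.7, 31.0 and 28.9 CPM and at 57.2, 53.4 and 53.4 CPM, a rise of 0.84 (edgeR adjusted p = 5.31e-05, standard error 0.0676). Itgb6, the chain of an epithelial integrin that binds fibronectin, rose by 0.89.

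Versican belongs with hyaluronan, its binding partner. Of 22 genes for related proteoglycans, hyaluronan synthases, link proteins and versican-cleaving proteases, 14 were tested: 2 were called higher, 1 was called lower, 1 rose and 2 fell by under 2-fold and 8 did not pass. Acan, which encodes the related proteoglycan aggrecan, was at 234, 219.5 and 245 CPM in Ad-GFP and at 776, 717 and 748 CPM in Ad-hHIF2 organoids (1.68, edgeR adjusted p = 3.71e-06, standard error 0.0839). Has2, a hyaluronan synthase, went from 6.06, 5.40 and 5.34 CPM to 2.97, 1.80 and 2.20 CPM (-1.27), and Adamts15, a protease that cleaves versican, rose by 1.40.

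The partners of type IV collagen in the basement membrane changed in a single direction among those that passed. Of 21 listed, 17 were tested, 4 were called higher, 8 rose by under 2-fold, 0 fell and 5 did not pass, with a median log2 fold change of 0.42 against -0.01 over all genes. Lamb1, the laminin β1 chain, was at 202, 197 and 187 CPM and at 819.9, 826 and 795 CPM (2.06, edgeR adjusted p = 7.57e-07, standard error 0.0786). Nid1, which encodes nidogen, a linker between laminin and type IV collagen, was at 102, 100.3 and 107 CPM and at 233, 212 and 247 CPM (1.17), and Lama3 and Nid2 rose by 1.56 and 1.57. Col4a1 and Col4a2 themselves, at 0.22 and 0.36, were below the median of this list. In Ad-hHIF1 organoids, 0 of the 68 tested genes of these 5 lists passed against Ad-GFP in edgeR. Before adjustment 7 were at p below 0.05, where the share over all genes was 8.59%. A further list, of matrix genes chosen as TGF-β targets, is given by counts only. Of 8 listed, 7 were tested in Ad-hHIF2 against Ad-GFP organoids: 3 were called higher, 0 lower, 2 fell by under 2-fold and 2 did not pass. In Ad-hHIF1 organoids 0 of the 7 passed.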

How the data were processed

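The authors deposited RSEM expected counts of 46517 genes in 9 samples, without normalization. The TPM values, also deposited by the authors, were used in alternatives and to pick the member reported for each structural class. The deposited effective lengths were used to express levels per kilobase. The RSEM version, genome build, annotation and strandedness are not given in the sources used here. Of the expected counts, 85.7% are whole numbers, and they were rounded before testing.

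Low-count genes were removed with filterByExpr, TMM was used for normalization, and quasi-likelihood fits were made in edgeR 4.0.16 (R 4.3.3) with Benjamini-Hochberg adjustment over all genes tested. For each HIF the fit against Ad-GFP held its own 6 samples, and that of both HIFs all 9. Standard errors were derived from the F statistic. CPM used TMM factors over all 9 samples (0.907 to 1.31). Values at 3 counts or fewer were treated as the detection floor, which covers counting error only.

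The alternatives were other count filters, DESeq2's size factors, no scaling beyond total counts, the DESeq2 test (1.42.0), limma 3.58.1 on log2(TPM + 1) and log2(TPM + 0.1), other samples in the fit, the replicate number as a block, no minimum fold, and each sample left out in turn. Positions came from GENCODE M21 (GRCm38) by Ensembl identifier, and start-site windows from RefSeq (GRCm38.p6). Python 3.11.15 and matplotlib 3.10.9 drew the figures. Members, gene lists and tests were chosen with earlier results of these data known. Values are given for members that passed a threshold in any comparison, for Fn1 and Vcan, and for the member with the highest mean TPM in each structural class. Other members appear as counts or ranges, or by name where a count of 5 or fewer needed it, and these were chosen after their values were seen. Col5a2 and the chains of types I, III, IV and VI that are set beside their partners are of this kind. Human HIF transcripts were not analysed here. Some genes of the lists, and 1 of the lists of cell type markers examined, are not reported here, so the markers in the text are not the full set that could bear on Col26a1.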

Additional observations from a re-analysis of the deposited data

How the results depend on the processing

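Of 27 results on single members, 437 alternatives were computed, of which 435 gave an adjusted p. In 377 of them the direction and the side of the adjusted p threshold of 0.05 were as reported, in 49 the p no longer passed and in 2, both of Col4a1, it newly passed. In 9 the sign was the opposite, 2 of which are among the 49. The opposite signs were those of Col5a1 between Ad-hHIF2 and Ad-GFP on both TPM scales (log2 differences of 0.0797 and 0.147), in the same comparison of Col7a1 without Ad-hHIF2 replicate 3 (-0.0180, in a range of -0.0180 to 0.181 over the samples left out) and of Col17a1 without Ad-GFP or Ad-hHIF2 replicate 3 (-0.206 and -0.110, in a range of -0.206 to 0.699), of Col12a1 between Ad-hHIF1 and Ad-GFP without Ad-GFP replicate 3 (-0.0417), and of Fn1 between Ad-hHIF1 and Ad-GFP with total counts only (0.0251) and on both TPM scales (0.0387 and 0.0402). With limma on log2(TPM + 1), 1 member was called higher and 0 lower against Ad-GFP, and 1 higher and 0 lower against Ad-hHIF1, where over all genes 196 were higher and 41 lower, and 121 higher and 17 lower. With limma on log2(TPM + 0.1), 4 members were higher and 0 lower against Ad-GFP, and 3 were higher and 0 lower against Ad-hHIF1. Over all genes, 644 were higher and 126 lower against Ad-GFP, and 344 higher and 64 lower against Ad-hHIF1. A pseudocount compresses the change of low genes by construction; for the sign changes and for the p-values that no longer passed the cause was not tested. Without a minimum fold, 7 members were higher and 2 lower against Ad-GFP, where 15.9% and 13.6% of all genes were, and 9 higher and 2 lower against Ad-hHIF1, where 13.7% and 12.0% of all genes were. With each sample left out in turn, 3 to 4 members were higher and 1 to 2 lower against Ad-GFP, and 3 to 5 were higher and 0 to 1 lower against Ad-hHIF1. Over all genes, 393 to 453 were then higher and 381 to 546 lower against Ad-GFP, and 323 to 394 higher and 262 to 766 lower against Ad-hHIF1. Lower counts fell by over 1.5 times without Ad-hHIF2 replicate 3 (381 against Ad-GFP and 295 against Ad-hHIF1) and, against Ad-hHIF1, without Ad-hHIF2 replicate 1 (262) or 4 (380) or Ad-hHIF1 replicate 3 (338). The fit of only the 6 HIF samples called 0 members and 462 of 14902 genes lower. Against Ad-GFP, all 9 samples in 1 fit gave 403 of 15556 genes higher and 379 lower, in place of 435 and 574. The counts of members in that fit were 3 higher and 1 lower. Total counts only moved the median of all genes to 0.24 between Ad-hHIF2 and Ad-GFP, with 800 genes higher and 440 lower in place of 435 and 574, and 538 higher and 482 lower in place of 376 and 575 between both HIFs. It called 4 members higher against Ad-GFP.

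The correlations of same-numbered samples ran from -0.25 to 0.214, and were all positive (0.0856 to 0.214) between Ad-hHIF2 and Ad-GFP. Differently numbered samples ran from -0.298 to 0.267, and from -0.214 to 0.132, mostly negative, between Ad-hHIF2 and Ad-GFP. The same-numbered values were not all over 0.1 and no label ties a number to an animal or batch. The numbers were therefore not used as pairs. With the replicate block, 0 members were called lower with Ad-hHIF2 against Ad-hHIF1, where 1 had been, and the counts of members against Ad-GFP stayed at 3 higher and 1 lower. Over all genes the block gave 437 higher and 599 lower between Ad-hHIF2 and Ad-GFP, and 374 higher and 446 lower between both HIFs. Members below about 1 CPM had few counts at this depth, and the 15 that the count filter removed did not pass in any comparison where edgeR without a filter gave an adjusted p (0.295 or more).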
